A study of Mus musculus with 4 samples.

Results

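Neurons release transmitter when a vesicle docked at the active zone fuses with the plasma membrane, and the genes that encode that machine were examined here in the cerebellum of mice with a heterozygous knockout of Arid1b. The genes were chosen by symbol from a fixed set of families: synaptotagmins, syntaxins and their binding proteins, VAMPs, SNAPs, complexins, Rims and Unc13 active zone proteins, synapsins, SV2 proteins, synaptogyrins and synaptophysin. The pattern matched 72 of the 24015 rows of the count table, and 68 of these had at least 10 counts summed over the 4 libraries. Stx11 and Syngr4, each with 12 counts, lay just inside that limit, and Cplx4, with 9, lay just outside it. Stx19, Syt8 and Vamp7 had 0 counts in the table. Of the 68 members, 66 had enough counts to be tested, all but Stx11 and Syngr4. The pattern goes by name, so that it also takes in SNAREs of the Golgi and endosomes and Snap91, a clathrin adaptor that is no SNARE.

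The study asked how a heterozygous knockout of Arid1b, which encodes a subunit of the BAF chromatin remodelling complex, alters transcription. Cerebella were micro-dissected from heterozygous mice and from littermates with both copies, all C57BL/6N, between postnatal days 140 and 150, and the strand-specific poly(A) libraries were sequenced in 1 lane. Each genotype had 1 male and 1 female library, with no treatment and no other allele named in the labels. The labels name neither the deleted part of Arid1b nor individual animals, so that p-values reflect only how these 4 libraries vary, which may be technical.

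In textbook terms, fusion is driven by SNARE proteins: Vamp on the vesicle zips together with syntaxin and Snap25 on the plasma membrane. Unc13 and Rims proteins prime vesicles at the active zone, complexins clamp the assembled SNAREs, and synaptotagmins trigger fusion when calcium enters. The cerebellum uses this machine in the parallel fibre terminals of granule cells, in climbing and mossy fibres that arrive from the brainstem, and in the inhibitory terminals of interneurons and Purkinje cells.

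Library totals ran from 15950899 to 20616219 counts. Arid1b stood at 52.9 (male) and 55.8 (female) CPM in the heterozygotes, and at 69.9 (male) and 71.0 (female) in the wild types, CPM being counts relative to the library total. Both heterozygotes were below both wild types, with a log2 fold change of -0.37 ± 0.11 (SE) that did not pass (adjusted p = 0.243, edgeR quasi-likelihood test). All 15 granule cell markers and all 15 Purkinje cell markers had counts in every library. The female wild type stood apart from the rest: over all tested genes it correlated with the other libraries at 0.977 to 0.981, and the other 3 with each other at 0.987 to 0.989 (Pearson's r of log2 CPM across genes). In that library Slc6a3, the dopamine transporter of midbrain neurons, had 0 counts, which allows a level of up to 0.146 CPM, while the other 3 libraries had counts of it, with 34.6 and 23.8 CPM in the male and female heterozygotes. Tph2, the serotonin synthesis enzyme of brainstem raphe neurons, stood at 5.63 CPM there and at 49.5 to 52.2 elsewhere. The hindbrain genes Hoxa5 and Hoxb5 were highest in that library, at 15.9 and 23.6 CPM, against 2.32 to 5.64 and 3.95 to 9.34 elsewhere.

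No release gene passed an adjusted p of 0.05 between the genotypes (edgeR quasi-likelihood test with sex and genotype as terms), where 0.0198% of all 15117 tested genes did. Heterozygotes had higher fitted values for 40 of the 66 tested members and lower ones for 26. Of all 15117 tested genes, 7723 were higher and 7394 lower. The median log2 fold change was 0.07, against 0.00630 over all tested genes. At an unadjusted p under 0.05 there were 11 higher members (16.7%), where 5.22% of all tested genes were higher at that level. There were 4 lower members (6.06%), where 6.46% of all tested genes were lower. Both heterozygotes lay above both wild types for 21 members (31.8%), against 22.1% of all tested genes. Both lay below for 14 members (21.2%), against 22.6%. Among genes with a mean of at least 10 CPM, a level that 60 of the members reached, both heterozygotes lay above both wild types for 33.3% of members and 21.4% of genes. The counts depended on single libraries. Without the female wild type the median over members was -0.00373, with 8 higher and 8 lower members at an unadjusted p under 0.05, where 7.11% of all genes were higher and 9.97% lower. With the male wild type left out the median was 0.13, with 22 higher and 8 lower members, where 14.7% of all genes were higher and 13.4% lower. Past an adjusted p of 0.05 there were then 6 and 24 members, beside 4.30% and 17.5% of all genes, and 0 when either heterozygote was left out (edgeR quasi-likelihood test, genotype as the only term).

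**Figure D1:**
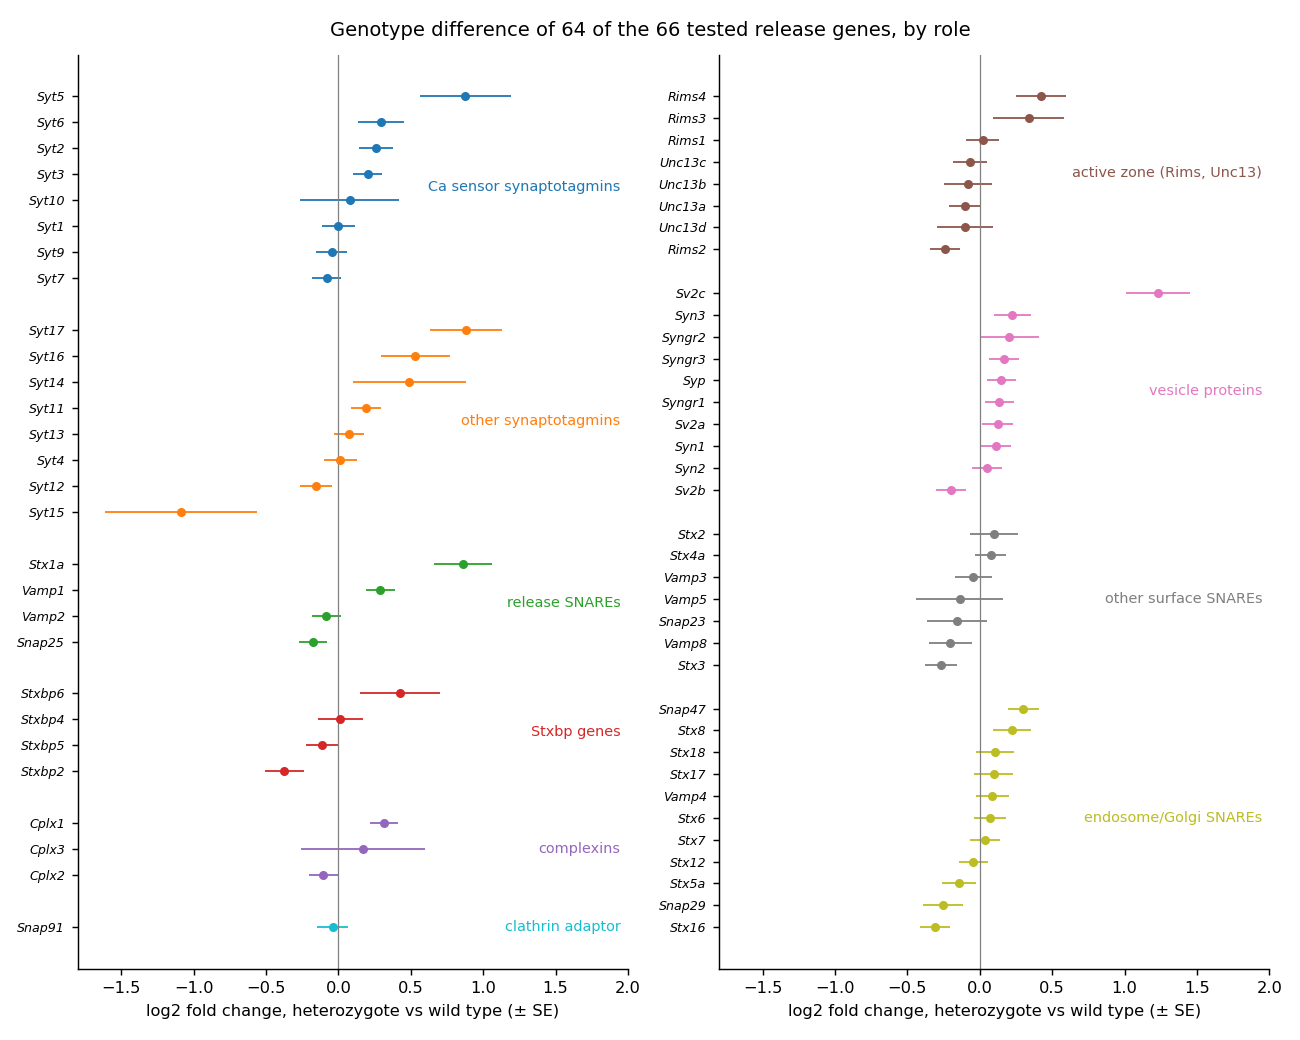
Log2 fold change of heterozygote over wild type for 64 of the 66 tested release genes, grouped and coloured by role; points are the fitted values of the 4 libraries and bars are ± 1 SE. Most vesicle proteins and release SNAREs sit to the right of 0, led by Sv2c at 1.23, and Syt15 at -1.09 lies farthest to the left.

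Members of 1 family often lay on opposite sides, as Vamp1 and Vamp2 or Cplx1 and Cplx2 did. Sv2c, Stx1a, Syt17, Cplx1, Snap47 and Vamp1 had the smallest p-values on the higher side among members with a mean of at least 1 CPM, and Stx16, Stxbp2, Stx3, Rims2, Sv2b and Snap29 on the lower side. For all 12 the male and the female pair gave the same sign. Picking genes by a small p favours that, since a difference between the 2 pairs widens a gene's spread in the fit. Most of that spread is shared over genes (1 residual degree of freedom, median prior of 10.6).

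**Figure D2:**
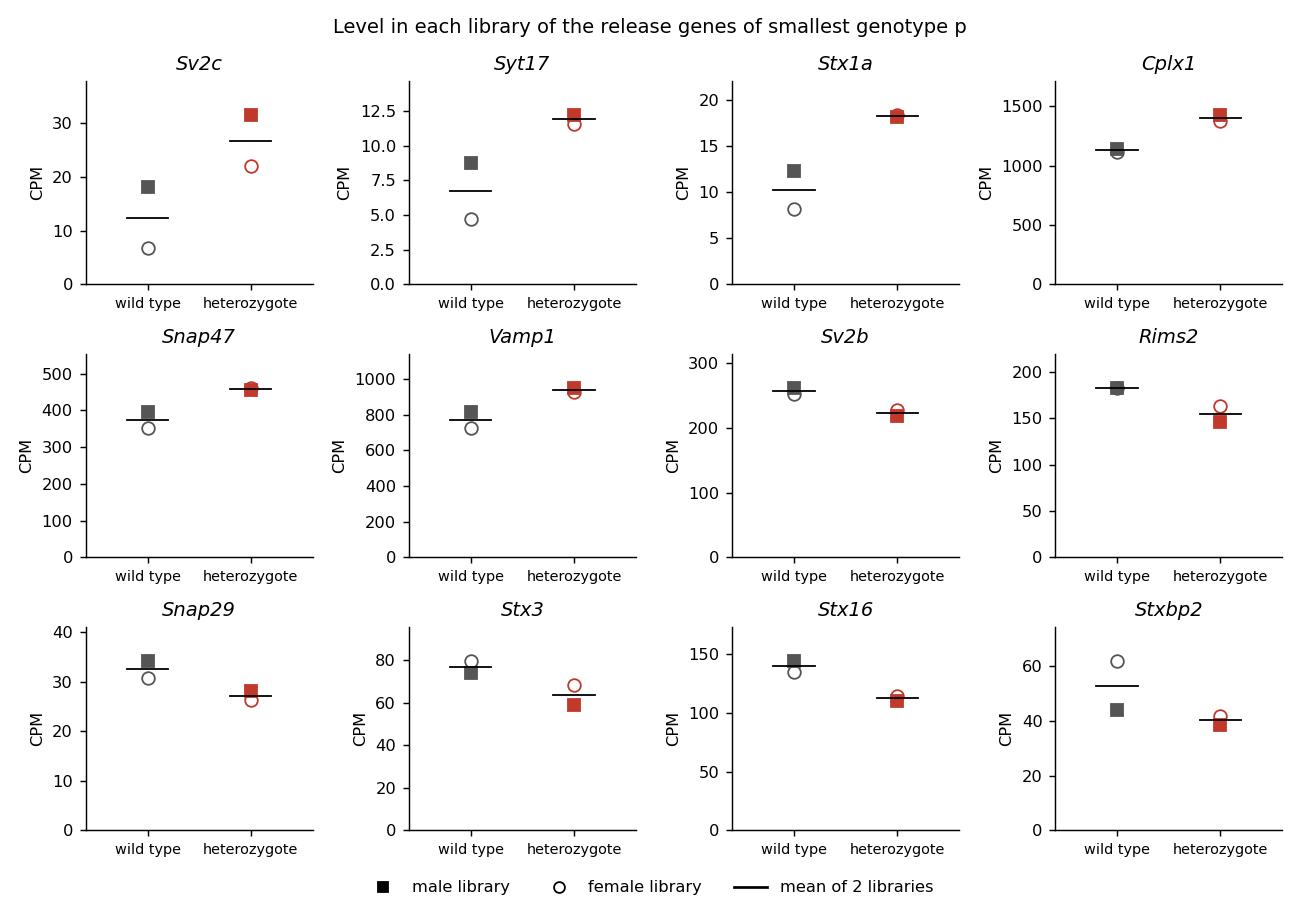
Level in CPM (vertical axis, starting at 0) of the 12 release genes of smallest genotype p with a mean of at least 1 CPM, 6 in each direction, in wild type (grey) and heterozygote (red) libraries; squares are males, open circles are females and black lines are the mean of 2 libraries. In each of the 12 panels the red and grey symbols do not overlap in level, and for each of the 6 higher genes the female wild type is the lowest library.

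To show what lies in front of some of these genes, the 250 bases before the RefSeq start (GRCm38.p6) are given for 4 of the higher and 2 of the lower genes, read 5′ to 3′ along the gene. They were picked as illustrations after their values were seen, so nothing is read from the contrast between the higher and the lower ones. Of the 68 members, 51 had an entry in the promoter table, with 64 start windows between them, and Snap25, Vamp2, Syt17, Syt5 and Rims2 were not among the entries. Capitals mark matches on either strand to the GC box GGGCGG, the core TGACG of the cAMP response element, the TATA box TATAAA and the REST element fragments TTCAGCA and GGACAGC. None of these motifs contains another.
Sv2c, chr13:96132578-96132827, minus strand: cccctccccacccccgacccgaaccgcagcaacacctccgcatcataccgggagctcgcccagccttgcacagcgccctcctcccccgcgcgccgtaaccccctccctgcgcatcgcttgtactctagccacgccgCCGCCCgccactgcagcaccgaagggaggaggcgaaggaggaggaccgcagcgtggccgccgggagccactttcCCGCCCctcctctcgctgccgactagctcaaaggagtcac
Stx1a, chr5:135023232-135023481, plus strand: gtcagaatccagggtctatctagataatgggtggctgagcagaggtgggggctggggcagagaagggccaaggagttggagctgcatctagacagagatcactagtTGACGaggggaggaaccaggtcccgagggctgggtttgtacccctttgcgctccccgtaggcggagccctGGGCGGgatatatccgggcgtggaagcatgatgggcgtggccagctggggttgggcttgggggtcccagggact
Cplx1, chr5:108550028-108550277, minus strand: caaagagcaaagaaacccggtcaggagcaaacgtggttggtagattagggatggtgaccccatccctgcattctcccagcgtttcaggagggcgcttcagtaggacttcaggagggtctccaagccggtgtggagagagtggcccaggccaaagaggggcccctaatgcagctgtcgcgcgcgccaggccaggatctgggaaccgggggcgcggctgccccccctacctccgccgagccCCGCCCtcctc
Vamp1, chr6:125215331-125215580, plus strand: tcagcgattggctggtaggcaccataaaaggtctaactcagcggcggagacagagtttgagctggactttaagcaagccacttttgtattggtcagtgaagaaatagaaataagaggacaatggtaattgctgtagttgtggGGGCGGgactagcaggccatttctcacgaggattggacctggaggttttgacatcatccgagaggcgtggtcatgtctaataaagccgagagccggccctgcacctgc
Stx3, chr19:11819404-11819653, minus strand: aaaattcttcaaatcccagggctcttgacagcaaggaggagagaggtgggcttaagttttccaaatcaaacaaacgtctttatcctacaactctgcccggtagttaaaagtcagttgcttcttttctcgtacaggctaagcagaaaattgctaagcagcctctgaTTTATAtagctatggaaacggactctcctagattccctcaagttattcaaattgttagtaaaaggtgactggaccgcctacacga
Stxbp2, chr8:3630859-3631108, plus strand: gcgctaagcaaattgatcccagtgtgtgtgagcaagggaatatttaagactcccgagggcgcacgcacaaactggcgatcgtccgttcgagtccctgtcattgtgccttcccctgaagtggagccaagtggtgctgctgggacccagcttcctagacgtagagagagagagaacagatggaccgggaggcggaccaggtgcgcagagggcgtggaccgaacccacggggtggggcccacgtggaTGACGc
Each of the 4 higher genes had a GC box, 2 of them in Sv2c, and Stx3 and Stxbp2 had none. The GC box was present in 41 of the 64 member windows (64.1%) and in 32.7% of all 32851 windows of the table, which also holds many noncoding genes. The member windows were richer in G and C, with a median of 61.2% against 52.4%. The core TGACG occurred in Stx1a and Stxbp2, in 17.2% of member windows and in 17.8% of all windows. The TATA box was found in Stx3 alone among these 6, in 6.25% of member windows and 12.4% of all. The REST fragments were in none of the 6, and in 4.69% and 6.25% of member windows against 3.81% and 5.28% of all. A match is a run of letters and not a shown binding site.

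The vesicle proteins were mostly higher, 9 of 10 tested members lying on that side (median log2 fold change 0.14). Sv2c, the SV2 glycoprotein of basal ganglia and brainstem neurons, stood at 31.4 (male) and 21.9 (female) CPM in the heterozygotes and at 18.1 (male) and 6.69 (female) in the wild types. The heterozygotes did not overlap with the wild types, though the female heterozygote was close to the male wild type. The mean was 26.7 ± 6.72 CPM in heterozygotes and 12.4 ± 8.03 in wild types (SD, n = 2 each). The log2 fold change of 1.23 ± 0.22 (SE) did not pass (edgeR quasi-likelihood test, adjusted p = 0.136). It passed with DESeq2 (adjusted p = 0.0328), where 0.225% of all tested genes passed. The log2 fold change was 2.003 with the male wild type left out and 0.57 with the female wild type left out. Most markers of brainstem and midbrain neurons were higher in the heterozygotes too, 13 of 15, and for 8 of the 15 both heterozygotes lay above both wild types, against 22.1% of all tested genes. The 2 lower ones were Hoxa5 (log2 fold change of -1.20) and Hoxb5 (-0.67). Tph2, Slc6a4, Slc18a2 and Slc17a6 were low in the female wild type alone. Slc6a4 stood at 3.93 CPM there and at 30.6 to 35.4 elsewhere, and Slc17a6 at 66.4 against 153 to 164. Summed levels of the list were 971 to 992 CPM in heterozygotes and 652 to 811 in wild types, and their part in the Sv2c difference was not tested.

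The other SV2 genes stood at higher levels and were closer between the genotypes. Sv2b, which is common in glutamatergic terminals, stood at 218 (male) and 227 (female) CPM in the heterozygotes and 261 (male) and 251 (female) in the wild types. It was the 1 tested vesicle protein on the lower side, and its groups did not overlap (log2 fold change of -0.20 ± 0.10, SE). Sv2a, the widespread form, stood at 627 (male) and 675 (female) CPM in the heterozygotes and 631 (male) and 566 (female) in the wild types, so its groups overlapped.

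Synaptophysin and the synaptogyrins are small membrane proteins that span the vesicle. Syp stood at 1332 (male) and 1374 (female) CPM in the heterozygotes and 1237 (male) and 1208 (female) in the wild types. Its heterozygotes were above its wild types by a small margin (log2 fold change of 0.15 ± 0.10, SE). Syngr1 likewise did not overlap, with 691 and 696 CPM in heterozygotes and 651 and 615 in wild types, males first (log2 fold change of 0.13 ± 0.10, SE). Syngr3, at 155 and 138 CPM in heterozygotes and 142 and 120 in wild types, males first, overlapped between the groups. The synapsins, which tie vesicles into the reserve pool, had log2 fold changes of 0.11 (Syn1), 0.05 (Syn2) and 0.23 (Syn3). Syn1 and Syn2 each share exon sequence with a gene on the opposite strand (Araf and Timp4), and no source used here says whether reads were counted by strand.

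Among the release SNAREs, Stx1a and Vamp1 were higher and Vamp2 and Snap25 lower. Stx1a, a plasma membrane syntaxin, stood at 18.1 (male) and 18.4 (female) CPM in the heterozygotes and at 12.3 (male) and 8.20 (female) in the wild types. The heterozygotes were nearly equal, and both exceeded both wild types (log2 fold change of 0.86 ± 0.20, SE). The difference did not pass (edgeR quasi-likelihood test, adjusted p = 0.158), and it was 1.16 with the male wild type left out and 0.57 with the female wild type left out.

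Vamp1 and Vamp2 are the vesicle SNAREs of fast release, Vamp1 being the form typical of brainstem and spinal cord. Vamp1 stood at 950 (male) and 927 (female) CPM in the heterozygotes and at 813 (male) and 727 (female) in the wild types. Both heterozygotes exceeded both wild types (log2 fold change of 0.29 ± 0.10, SE; 0.37 with the male wild type left out and 0.21 with the female wild type left out). Vamp2 stood at 784 (male) and 785 (female) CPM in the heterozygotes and 846 (male) and 818 (female) in the wild types, a small difference in the other direction (log2 fold change of -0.08 ± 0.10, SE). Snap25, the most abundant member both in CPM and per kilobase, stood at 3284 (male) and 3079 (female) CPM in the heterozygotes and 3731 (male) and 3473 (female) in the wild types. Its groups did not overlap either (log2 fold change of -0.18 ± 0.10, SE). Vamp1, Vamp2 and Snap25 did not pass (adjusted p from 0.304 to 0.809, edgeR quasi-likelihood test).

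The complexins likewise lay on both sides. Cplx1, a complexin found in many inhibitory and brainstem neurons, stood at 1427 (male) and 1378 (female) CPM in the heterozygotes and at 1139 (male) and 1119 (female) in the wild types. The libraries of each genotype lay close together and the groups far apart, with means of 1402 ± 34.8 and 1129 ± 14.1 CPM (SD, n = 2 each). The log2 fold change was 0.31 ± 0.10 (SE; edgeR quasi-likelihood test, adjusted p = 0.257), and it stayed between 0.29 and 0.33 with any 1 library left out. Cplx2 stood at 1018 (male) and 1016 (female) CPM in the heterozygotes and 1098 (male) and 1089 (female) in the wild types (log2 fold change of -0.10 ± 0.10, SE). Cplx3, a complexin of retinal ribbon synapses, stood at 1.36 to 3.16 CPM with the groups overlapping.

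The balance within such pairs can be read inside each library, where depth cancels. The log2 count ratio of Cplx1 to Cplx2 was 0.49 and 0.44 in the male and female heterozygotes and 0.05 and 0.04 in the male and female wild types. That of Vamp1 to Vamp2 was 0.28 and 0.24 in the male and female heterozygotes and -0.06 and -0.17 in the male and female wild types. For both pairs the heterozygotes lay above the wild types, with differences of 0.42 and 0.37, and the difference had the same sign within males and within females. Snap47, a Snap25 relative of inner membranes, was higher relative to Snap25 by 0.48 in the heterozygotes, without overlap between the groups. The difference in log2 ratio was -0.32 for Sv2b to Sv2a, again without overlap. The ratio of Rims2 to Rims1 differed by -0.26 and that of Syn2 to Syn1 by -0.06, also without overlap. The groups overlapped for Syt2 to Syt1, Unc13c to Unc13a and Syngr3 to Syngr1. With 2 libraries against 2, an exact permutation test cannot go below p = 0.333, so these ratios are given as values. No share for other gene pairs is given here. Of all tested genes taken singly, both heterozygotes lay above both wild types for 22.1% and below both for 22.6%.

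**Figure D3:**
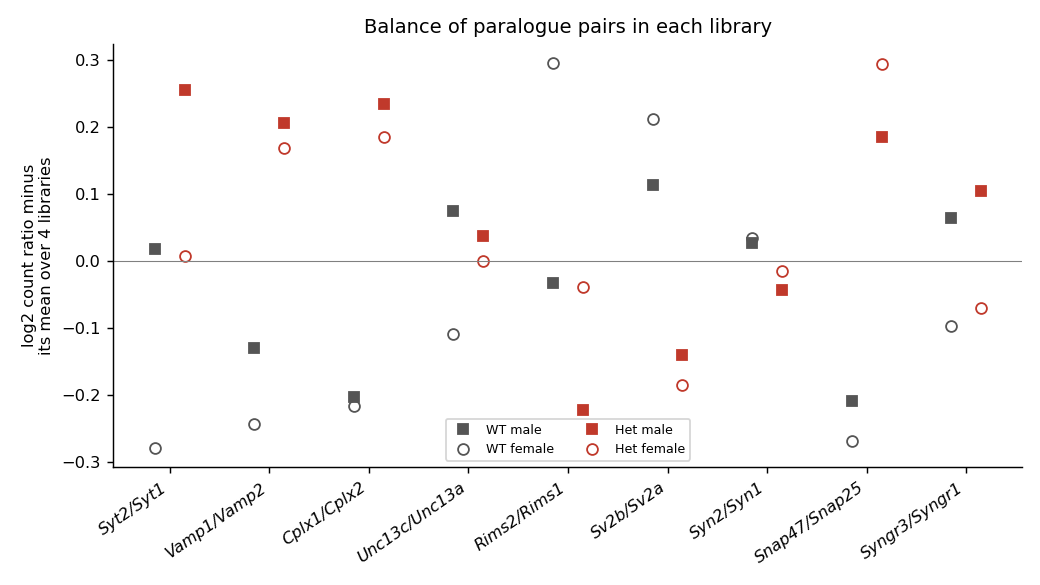
Log2 ratio of the counts of 2 related genes in each library, minus the mean of that pair over the 4 libraries (vertical axis); wild types are grey, heterozygotes red, males squares and females open circles. Heterozygotes lie above wild types for Vamp1/Vamp2, Cplx1/Cplx2 and Snap47/Snap25 and below for Rims2/Rims1, Sv2b/Sv2a and, at -0.06, Syn2/Syn1.

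Cell type markers also differed between the same libraries. In heterozygotes all 15 granule cell markers stood lower (median log2 fold change -0.43), with summed levels of 4470 to 5018 CPM in heterozygotes and 5816 to 6793 in wild types. All 15 Purkinje cell markers were lower too, with a median of -0.32 and summed levels of 4890 to 5187 CPM against 5756 to 6701. Of the 10 inhibitory neuron markers 6 were higher, with a median of 0.27, and their summed levels overlapped (2555 to 2683 CPM in heterozygotes and 2559 to 2802 in wild types). CPM is relative to the library total. In whole tissue, fewer cells of a type thus cannot be told apart from less RNA per cell or a larger share of RNA from other cells. The part of these markers in the release gene differences was not tested.

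The calcium sensors were higher in 5 of 8 cases, with a median log2 fold change of 0.14. Syt1, the main fast sensor of the brain, stood at 529 (male) and 571 (female) CPM in the heterozygotes and 597 (male) and 508 (female) in the wild types. The groups overlapped, and the log2 fold change of -0.00123 ± 0.11 (SE) joined a ratio of -0.18 in males with one of 0.17 in females. Syt2, the fast sensor of hindbrain and many inhibitory synapses, stood at 207 (male) and 188 (female) CPM in the heterozygotes and 198 (male) and 137 (female) in the wild types. Its log2 fold change of 0.26 ± 0.12 (SE) was -0.00505 without the female wild type and 0.53 with the male wild type left out. Syt7, the slow sensor of facilitation, stood at 361 (male) and 371 (female) CPM in the heterozygotes and 388 (male) and 387 (female) in the wild types, and its log2 fold change was -0.08 ± 0.10 (SE).

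Syt5 had the largest log2 fold change among the sensors, 0.88 ± 0.32 (SE). It stood at 32.1 (male) and 40.4 (female) CPM in the heterozygotes and at 26.4 (male) and 14.4 (female) in the wild types. The groups did not overlap, but the log2 ratio was 0.28 in males and 1.48 in females. It was 1.33 with the male wild type left out and 0.45 with the female wild type left out.

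Of the other synaptotagmins 6 of 8 were higher, with a median of 0.13. Syt17, a tandem C2 domain protein without a membrane anchor, stood at 12.2 (male) and 11.6 (female) CPM in the heterozygotes and 8.75 (male) and 4.71 (female) in the wild types. Both heterozygotes exceeded both wild types (log2 fold change of 0.88 ± 0.25, SE), by 1.34 with the male wild type left out and 0.44 with the female wild type left out. Syt15, at 0.394 to 1.41 CPM, had the lowest value of all members, -1.09 ± 0.53 (SE), from 8 to 29 counts a library. Syt11 and Syt4, which carry a change in a calcium-binding site of the first C2 domain, had log2 fold changes of 0.19 ± 0.11 and 0.01 ± 0.11 (SE).

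The 8 active zone members were split, 3 higher and 5 lower, and their median was -0.07 (males -0.19, females 0.14). Rims2, a scaffold that tethers vesicles and calcium channels, stood at 145 (male) and 163 (female) CPM in the heterozygotes and at 183 (male) and 182 (female) in the wild types. Both heterozygotes were below the wild types, which were nearly equal (log2 fold change of -0.24 ± 0.10, SE; -0.16 without the male heterozygote). Rims1 stood at 86.0 and 85.1 CPM in the male and female heterozygotes, between the wild types at 94.6 (male) and 75.3 (female). Rims4, a short form without the vesicle-binding part, had the highest value of the group, 0.42 ± 0.17 (SE), with means of 19.2 ± 0.665 CPM in heterozygotes and 14.3 ± 1.90 in wild types (SD, n = 2 each) and no overlap.

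The priming proteins overlapped between the genotypes. Unc13a stood at 160 (male) and 186 (female) CPM in the heterozygotes and 188 (male) and 183 (female) in the wild types. Unc13c, the form characteristic of granule cells, stood at 188 (male) and 213 (female) CPM in the heterozygotes and 226 (male) and 194 (female) in the wild types. For both, the male heterozygote was the lowest library, with log2 fold changes of -0.10 ± 0.11 and -0.07 ± 0.12 (SE). Unc13a shares exon sequence with Colgalt1 on the opposite strand.

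Among the Stxbp genes, 3 of 5 were higher and 2 lower. Stxbp2, which serves immune and epithelial secretion, stood at 38.7 (male) and 41.9 (female) CPM in the heterozygotes and 43.9 (male) and 62.0 (female) in the wild types. Its log2 fold change of -0.37 ± 0.14 (SE) was -0.13 without the female wild type. Stxbp6, or amisyn, stood at 35.6 to 38.9 CPM in 3 libraries and at 19.8 in the female wild type, and its log2 fold change of 0.42 ± 0.28 (SE) turned to -0.05 without that library.

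The SNAREs of other membranes had log2 fold changes from -0.31 to 0.30. Of the 7 tested surface forms 2 were higher and 5 lower, with a median of -0.14, and of the 11 endosome and Golgi forms 7 were higher and 4 lower, with a median of 0.07. Stx16, a syntaxin of the trans-Golgi network, stood at 110 (male) and 115 (female) CPM in the heterozygotes and 144 (male) and 135 (female) in the wild types. The groups were well apart, with a log2 fold change of -0.31 ± 0.10 (SE) that ran from -0.36 to -0.27 with 1 library left out. Snap47 stood at 456 (male) and 461 (female) CPM in the heterozygotes and 395 (male) and 352 (female) in the wild types (log2 fold change of 0.30 ± 0.10, SE). Stx3, a syntaxin of apical membranes and retinal synapses, stood at 59.1 (male) and 68.6 (female) CPM in the heterozygotes and 73.9 (male) and 79.8 (female) in the wild types (-0.27 ± 0.11, SE). Snap29, which serves autophagosome fusion, stood at 28.0 and 26.2 CPM in heterozygotes and 34.2 and 30.7 in wild types, males first (-0.25 ± 0.14, SE). These 4 did not pass (edgeR quasi-likelihood test, adjusted p from 0.282 to 0.514), and Snap29 shares exon sequence with Pi4ka on the opposite strand. Stx2 was the highest surface form at 0.10 ± 0.17 (SE) with overlapping groups, and Snap91 stood at 305 and 307 CPM in the heterozygotes, between the wild types at 340 (male) and 291 (female).

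Within the sexes, the median log2 ratio over the 66 members was -0.00237 in males and 0.11 in females. Of the members 28 were higher in the heterozygote of both sexes (42.4%, against 28.8% of all tested genes) and 17 were lower in both (25.8%, against 29.5%). Whether the male and female genotype effects differed was tested by their product term. With 1 library per sex and genotype that test is rough, since its residual is the difference between the sexes. No member passed an adjusted p of 0.05 there (edgeR quasi-likelihood test), where 0.0198% of all genes did. At an unadjusted p under 0.05 there were 3 such members, Stxbp6, Rims3 and Syt5, or 4.55% against 3.55% of all genes. Rims3, a short Rims form, had a log2 ratio of -0.15 in males and 0.83 in females, and it stood lowest in the female wild type at 29.1 CPM against 44.1 to 51.8 in the other libraries. Sex itself gave 0 members past an adjusted p of 0.05 (edgeR quasi-likelihood test; 0.0595% of all genes) and 5 at an unadjusted p under 0.05 (7.58%, against 3.82% of all genes). Among these, Syt2 and Syt14 were lower in both female libraries than in both male ones. Sv2c had a lower fitted value in females and Stxbp2 a higher one, but for both the sexes overlapped. The female wild type was the lowest library for Sv2c, Syt2 and Syt14 and the highest for Stxbp2. Syt14 stood at 2.32 (heterozygote) and 1.07 (wild type) CPM in females and at 3.20 and 3.22 in males.

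**Figure D4:**
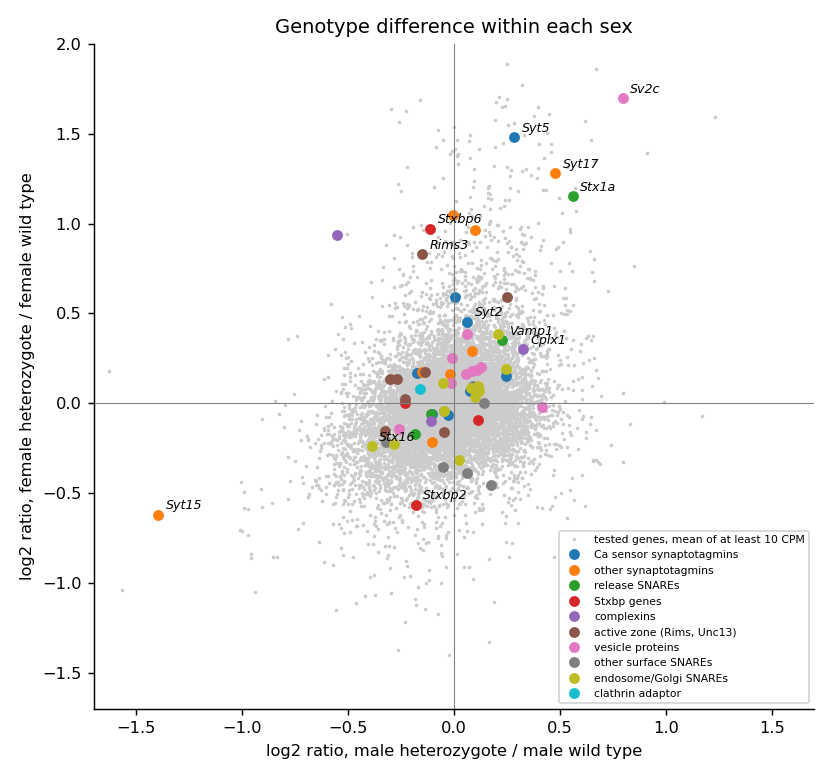
Log2 ratio of heterozygote to wild type between the males (horizontal) and between the females (vertical), 1 library each; coloured points are 64 of the 66 tested release genes by role and grey points are tested genes with a mean of at least 10 CPM, of which a few lie outside the axes. Sv2c, Stx1a and Syt17 stand high in both sexes and higher in females, while Syt5 lies at 1.48 in females and 0.28 in males. Cplx1 and Vamp1 lie near the diagonal, and Stxbp6 and Rims3 lie at 0.97 and 0.83 in females against -0.11 and -0.15 in males.

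The companions of this machine outside the chosen families showed where the neighbouring steps stood. Of 61 listed genes 60 were tested, none passed (edgeR quasi-likelihood test, adjusted p from 0.136 to 0.997), and 34 were higher and 26 lower with a median of 0.05. The 15 active zone companions leaned lower, 10 of them with a median of -0.09, and at an unadjusted p under 0.05 there were 7 lower (6.46% of all tested genes were) and 1 higher (5.22% of all). Bsn, the large active zone scaffold bassoon, stood at 222 (male) and 236 (female) CPM in the heterozygotes and 309 (male) and 314 (female) in the wild types, so that the groups were far apart (log2 fold change of -0.44 ± 0.10, SE). Lin7a, an adaptor that binds Cask, stood at 139 and 130 CPM in heterozygotes and 189 and 193 in wild types, males first (-0.51 ± 0.10, SE). On the higher side of this list were Rimbp2 (0.73 ± 0.28, SE) and Erc2 (0.27 ± 0.16, SE), both lowest in the female wild type, with overlapping groups.

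In the priming and fusion list 13 of 18 were higher, with a median of 0.13. Nsf, the ATPase that takes spent SNARE complexes apart, stood at 1087 (male) and 1032 (female) CPM in the heterozygotes and 952 (male) and 768 (female) in the wild types (0.31 ± 0.11, SE). Rab3b, a vesicle GTPase, had 0.42 ± 0.14 (SE), while Stxbp5l, a tomosyn that restrains SNARE assembly, had -0.36 ± 0.11 and Prrt2, a presynaptic membrane protein, -0.32 ± 0.11 (SE). Of the 12 vesicle companions 9 were higher, with a median of 0.10. Slc32a1, which loads GABA and glycine into vesicles, had 0.30 ± 0.10 (SE) and Vat1 0.51 ± 0.15 (SE), while Synpr, or synaptoporin, had -0.48 ± 0.12 (SE) and Slc17a7, the glutamate transporter of granule cell terminals, -0.18 ± 0.11 (SE). The recycling list was balanced, with 7 of 15 higher and a median of -0.00194, and in it Ap2m1, a subunit of the clathrin adaptor AP2, had 0.30 ± 0.10 and the clathrin assembly gene Picalm -0.25 ± 0.10 (SE).

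**Figure D5:**
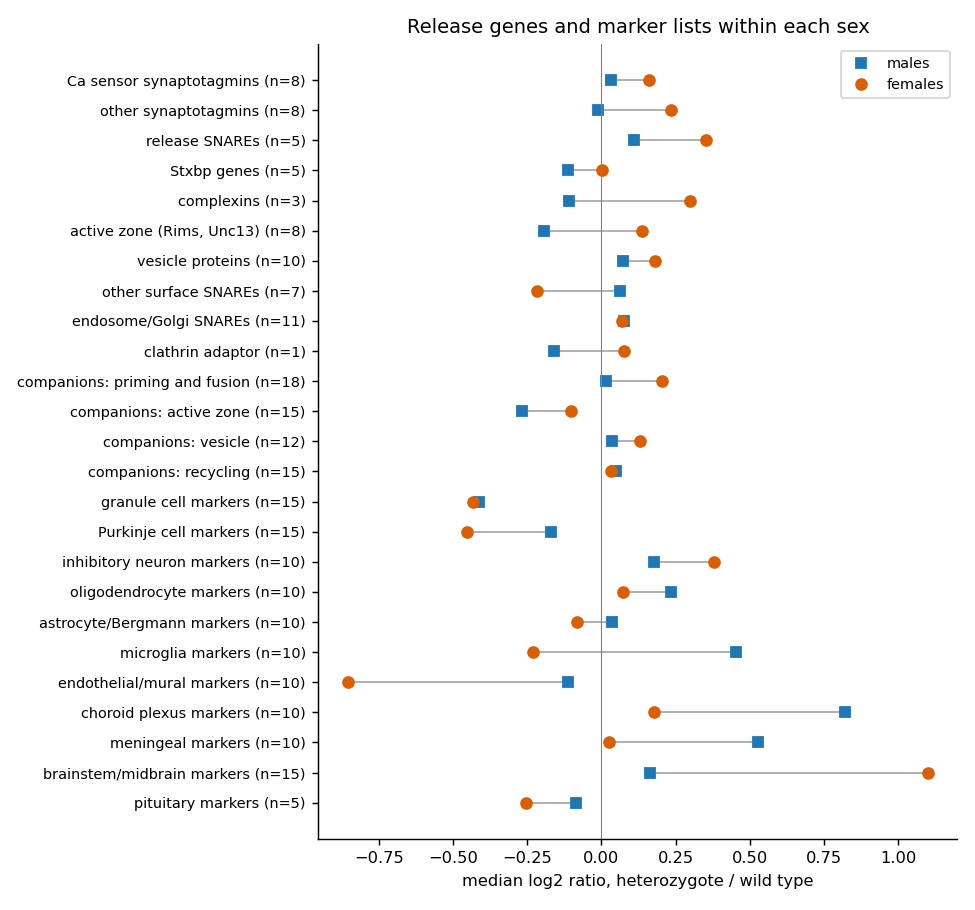
Median log2 ratio of heterozygote to wild type over the tested genes of each list (number in brackets), for the male pair (squares) and the female pair (circles); the upper 10 lists are the release genes by role, then 4 lists of companions, then 11 lists of cell type markers. Release gene roles lie between -0.22 and 0.35, while granule cell markers lie at -0.41 and -0.43 and brainstem and midbrain markers at 0.16 in males and 1.10 in females.

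Other marker lists also differed between the genotypes, and their part in the release gene values was not tested. Oligodendrocyte markers were higher in 10 of 10 cases (summed levels of 13353 to 14162 CPM in heterozygotes and 12173 to 12901 in wild types) and endothelial and mural markers lower in 10 of 10 (152 to 174 against 203 to 295 CPM). Choroid plexus markers were higher in 9 of 10 (1552 to 2692 against 1462 to 1471 CPM), as were meningeal markers (190 to 220 against 157 to 186 CPM). Astrocyte and Bergmann glia markers (3209 to 3338 against 3329 to 3881 CPM), microglia markers (127 to 178 against 132 to 144 CPM) and pituitary markers (3.65 to 31.5 against 4.92 to 6.84 CPM) overlapped in their sums, and of the 8 pituitary genes Fshb was at 0 counts in all libraries.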

How the data were processed

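RNA from cerebella of Arid1b heterozygotes and wild types, in 4 libraries with 1 male and 1 female per genotype, was sequenced in 1 lane, per the labels' protocols. The authors deposited raw counts per gene symbol, 1 column per library, with 0 columns of other samples. The submitters' processing notes name STAR, featureCounts, FastQC, edgeR and mm9, while versions and the strand setting are not given in the sources used here. The members and gene lists were chosen with earlier results of these data known. Counts were filtered with filterByExpr by genotype (15117 of 24015 genes, 99.9% of counts), scaled by TMM (factors of 0.999 to 1.00) and fitted with edgeR 4.0.16 in R 4.3.3, using the robust quasi-likelihood test with terms for sex and genotype, which leaves 1 residual degree of freedom (median prior 10.6). Two-sided p-values had Benjamini-Hochberg adjustment across the 15117 genes, with a threshold of 0.05. The SE was the log2 fold change divided by the square root of F. A product term of genotype and sex, beside genotype, tested roughly whether the effect differed between sexes, with the sex difference as the residual. Within-sex log2 ratios are untested and add a prior count of 2. With 3 counts as the floor, a gene without counts can stand at up to 0.146 to 0.188 CPM, for counting error only. Lengths were those of the longest GENCODE M21 transcript, which need not be the one expressed. Named members were the 6 of smallest p per direction with a mean of at least 1 CPM, 10 fixed paralogue pairs, the highest and lowest of each role and 5 core genes, and 2 companions per list and direction. Members named beyond that rule, such as Syt4, Syt11, Syn3, Syt14, Rims3 and Cplx3, were chosen after their values were seen. Members not reported singly here stay in the counts and medians but are left out of the plots of single genes. Scripts were tested on simulated data. Alternatives were DESeq2 1.42.0, limma-voom (limma 3.58.1), DESeq2's size factors, library totals, no filter, 1 CPM in 2 libraries, no sex term, a mean of at least 10 CPM and leaving out each library, with genotype as the only term.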

Additional observations from a re-analysis of the deposited data

How the results depend on the processing

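At an unadjusted p under 0.05 edgeR's quasi-likelihood test had 11 members higher, where 5.22% of all genes were. It had 4 lower, where 6.46% of all genes were. The count of members past an adjusted p of 0.05 between the genotypes was 0 with that test. It was also 0 with DESeq2's size factors, library totals, the filter of 1 CPM in 2 libraries, limma-voom and no sex term. It was 4 with no low-count filter (Sv2c, Stx1a, Syt5 and Syt17), where 2.92% of all genes passed. It was 1 with DESeq2 (Sv2c), where 0.225% of all genes passed. With 1 library left out it ran from 0 to 24, being 0 without either heterozygote, 24 without the male wild type, where 17.5% of all genes passed, and 6 without the female wild type, where 4.30% passed. The spread there comes from the pair of libraries left in 1 genotype. Members at an unadjusted p under 0.05 numbered 7 higher without the sex term (4.74% of all genes) and 1 lower with DESeq2 (2.59% of all genes). With 1 library left out they ran from 2 to 22 higher, beside 1.03% to 14.7% of all genes, and from 0 to 8 lower, beside 1.58% to 13.4%. The median over members ran from -0.00373 to 0.13 with 1 library left out and was 0.07 over members with a mean of at least 10 CPM. The sex term called 1 member, Sv2c, with no low-count filter, and the share of all genes in that run is not given here. The value for Arid1b ran from -0.42 to -0.33 with 1 library left out.

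Of 35 named members, 27 kept their sign in every alternative run. The other 8 changed sign only when 1 library was left out: Rims1 (-0.15 to 0.19), Snap91 (-0.16 to 0.074), Syt1 (-0.12 to 0.12), Syt2 (-0.00505 to 0.53), Unc13a (-0.22 to 0.00829), Unc13c (-0.18 to 0.045), Stx2 (-0.054 to 0.22) and Stxbp6 (-0.050 to 0.91). The cause was not tested. Depth limits the value of Syt15, which rests on 8 to 29 counts a library.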
